A study of Mus musculus with 238 samples.

Results

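Mt1, Mt2 and Mt3 are the metallothionein genes with appreciable counts in this bulk RNA-seq series of aged mouse brain and liver. They were chosen by name, and all 3 were found among the 21076 gene rows of the count table. A row for another family member, Mt4, never held more than 3 counts in a library and was not described further. Every animal was a 19 month old C57BL/6JN mouse, and no group carried a transgene or a mutant allele. In the diet experiment, females were either dietary restricted (aDR, 5 mice, with the livers labelled DR) or fed ad libitum (AL, 4 mice). In the plasma experiment, males were injected retro-orbitally with young mouse plasma (YMP, 3 mice) or with phosphate-buffered saline (PBS, 4 mice). The same 15 brain dissections were taken from each cohort, giving 73 aDR, 58 AL, 44 YMP and 54 PBS brain libraries, and the diet cohort also gave 5 DR and 4 AL livers. All females belonged to the diet experiment and all males to the plasma experiment, so that sex and cohort cannot be told apart.

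Metallothioneins are small proteins in which cysteines bind zinc and copper, and they buffer these metals inside cells. Mt1 and Mt2 are made in most tissues, are strongly expressed by hepatocytes and astrocytes, and are induced by metals through the transcription factor Mtf1 as well as by glucocorticoids and inflammatory cytokines. Mt3 is the brain member of the family, found in neurons and astrocytes and first known as a growth inhibitory factor, and it responds little to metals.

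The genes lie on the same strand of 1 chromosome in GRCm38 (GENCODE vM21): Mt3 at chr8:94152607-94154146, Mt2 at chr8:94172664-94173568 and Mt1 at chr8:94179082-94180327, each with a main transcript of 3 exons. Main transcripts measured 549 bases for Mt1, 511 for Mt2 and 536 for Mt3. The coding sequences are shown because their repeated cysteine codons, in capitals, define the family and show how the members differ.
Mt1: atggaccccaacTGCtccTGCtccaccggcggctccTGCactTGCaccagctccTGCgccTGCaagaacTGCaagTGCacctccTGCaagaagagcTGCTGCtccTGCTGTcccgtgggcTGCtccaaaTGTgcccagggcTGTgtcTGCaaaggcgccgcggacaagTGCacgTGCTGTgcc
Mt2: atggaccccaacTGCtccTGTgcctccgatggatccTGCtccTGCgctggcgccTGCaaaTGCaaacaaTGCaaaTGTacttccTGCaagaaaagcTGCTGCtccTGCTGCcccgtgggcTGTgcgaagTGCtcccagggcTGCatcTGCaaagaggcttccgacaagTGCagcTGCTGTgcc
Mt3: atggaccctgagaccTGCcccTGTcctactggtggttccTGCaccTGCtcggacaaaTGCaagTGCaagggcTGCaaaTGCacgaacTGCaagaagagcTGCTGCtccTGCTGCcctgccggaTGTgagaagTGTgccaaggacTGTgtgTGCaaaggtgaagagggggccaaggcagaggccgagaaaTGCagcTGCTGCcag
Each of the 3 coding sequences held 20 cysteine codons, of 61 codons in Mt1, 61 in Mt2 and 68 in Mt3. The coding bases of Mt1 and Mt2 were 79.2% identical, against 65.7% for Mt1 and Mt3 and 67.2% for Mt2 and Mt3. The longest run shared by Mt1 and Mt2 was 20 bases, and no stretch of 50 bases in any member's main transcript occurred in the transcripts of another gene. Counting ignored strand, and Mt2 is overlapped by an antisense gene, Gm45774, which has no row in the table, so reads from that gene cannot be told apart from Mt2 reads.

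The 250 bases before the RefSeq transcription start (RefSeq, GRCm38.p6) are shown for the members because Mt1 and Mt2 moved together across libraries while Mt3 followed them only in part. Capitals mark matches, on either strand, to the core of the metal response element, TGCACNC or TGCGCNC.
Mt1 (chr8:94178839-94179088): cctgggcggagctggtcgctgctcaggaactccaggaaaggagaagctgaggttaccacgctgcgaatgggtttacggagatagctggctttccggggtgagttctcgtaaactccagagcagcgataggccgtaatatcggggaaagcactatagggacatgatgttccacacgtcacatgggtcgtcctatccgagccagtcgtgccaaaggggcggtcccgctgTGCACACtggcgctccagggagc
Mt2 (chr8:94172368-94172617): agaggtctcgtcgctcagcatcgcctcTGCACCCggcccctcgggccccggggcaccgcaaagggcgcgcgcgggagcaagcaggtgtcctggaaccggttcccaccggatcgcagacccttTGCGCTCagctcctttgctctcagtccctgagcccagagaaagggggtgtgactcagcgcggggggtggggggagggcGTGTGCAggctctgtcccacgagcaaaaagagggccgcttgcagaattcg
Mt3 (chr8:94152357-94152606): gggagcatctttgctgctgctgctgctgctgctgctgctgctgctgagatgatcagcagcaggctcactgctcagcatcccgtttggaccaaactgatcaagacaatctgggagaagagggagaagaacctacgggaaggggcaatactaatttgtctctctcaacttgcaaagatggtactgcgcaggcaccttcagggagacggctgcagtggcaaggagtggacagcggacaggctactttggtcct
This window held 1 match for Mt1, 3 for Mt2 and 0 for Mt3. Of 32851 RefSeq promoters, 21.4% held at least 1 match in a window of this length and 1.26% held at least 3. The glucocorticoid receptor hexamer AGAACA matched in none of the 3 windows and in 16.1% of all promoters. These matches are letters in a short window and are not evidence of a bound site. The RefSeq start differs from the GENCODE gene start for Mt1 (94179089 against 94179082) and for Mt2 (94172618 against 94172664). Bases outside the window, those after the start included, were not searched, so the counts are not the full number of elements of a gene. The part of these matches in how the members moved across libraries was not tested.

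Each library held between 0.606 and 32.4 M counts (1 M is 1000000 counts), the median being 8.44 M, and 6 were below 2 M. In the 229 brain libraries, Mt1 had 158 to 19572 counts, Mt2 27 to 3635 and Mt3 131 to 11611, so every brain value rested on at least 27 counts. Hepatocyte markers were abundant in every liver. Choroid plexus epithelium markers (8 genes) summed to between 157 and 15599 CPM (counts per 1000000 counts of the library) in the choroid plexus libraries, but also reached 20282 CPM in a library of the subventricular zone (SVZ) and 19155 CPM in one of the corpus callosum. In the corpus callosum the 3 PBS libraries held 5104 to 19155 CPM of these markers and the 2 YMP libraries 9.76 to 21.9 CPM, and in the SVZ 2941 to 20282 CPM against 28.8 to 51.3 CPM. Their part in the levels of the metallothioneins in these regions was not tested. Nothing in the labels says that libraries of 1 region came from pooled animals, and each carries the number of 1 mouse. Chi-square comparisons of replicate libraries found none that agreed within sampling noise.

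In control mice Mt1 had the highest mean per length of the 3 members in every brain region. Both Mt1 and Mt2 were highest in the cerebellum and lowest in the motor and visual cortex. Scaled to the length of the main transcript, the AL cerebellum held 1142 ± 220 CPM per kilobase of Mt1, 242 ± 36.5 of Mt2 and 408 ± 42.5 of Mt3 (SD, n = 4). Mt1 exceeded Mt2 per length in all 30 control groups, by a mean ratio of 4.28 in the AL SVZ to 5.70 in the PBS entorhinal cortex. Mt1 exceeded Mt3 by less, from 1.04 ± 0.104 in the PBS motor cortex to 2.78 ± 0.279 in the AL cerebellum (SD, n = 4). In the PBS motor cortex and thalamus (1.04 ± 0.133, SD, n = 4) the lead over Mt3 lay within the spread of the mice, and it was not tested. A level in bulk tissue is an average, and fewer expressing cells cannot be told apart from less RNA per cell.

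Mt1 CPM in the AL cerebellum was 776, 665, 569 and 497 in the 4 mice, and in the AL visual cortex it ranged from 191 to 290. The group means were 627 and 234 CPM, a ratio of 2.67. The PBS males gave 422 to 790 CPM in the cerebellum and 191 to 270 CPM in the motor cortex, the lowest region in that cohort, a ratio of means of 2.60. Thus no control library of the lowest region reached any of the highest, in either cohort. Mt1 in AL mice ran from the cerebellum through medulla (525 ± 163 CPM), SVZ (483 ± 34.5), anterior hippocampus (458 ± 73.3), olfactory bulb (438 ± 63.1) and corpus callosum (435 ± 60.9) to caudate putamen, pons, posterior hippocampus and choroid plexus, which lay between 373 and 376 CPM. Hypothalamus (338 ± 89.8), thalamus (303 ± 57.2), entorhinal cortex (296 ± 38.3), motor cortex (240 ± 36.0) and visual cortex came last (SD, n = 3 or 4).

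Mt2 lay at a lower level, with the same region on top and some others in different places. Its AL means were 124 ± 18.7 CPM in the cerebellum, 105 ± 12.01 in the SVZ, 97.0 ± 15.5 in the anterior hippocampus and 96.9 ± 34.1 in the medulla. The motor cortex was lowest, with 40.3 ± 3.73 CPM, so that the cerebellum exceeded it 3.07-fold. In PBS males the same 2 regions gave 115 ± 26.6 and 37.4 ± 5.62 CPM, a ratio of 3.06. The remaining AL regions lay between 42.0 CPM in the visual cortex and 84.5 CPM in the olfactory bulb.

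Mt3 was flatter and ordered differently. It was highest in the anterior hippocampus, with 329 ± 58.9 CPM in AL and 303 ± 31.9 CPM in PBS mice, and lowest in the visual cortex, with 186 ± 47.4 and 199 ± 9.12 CPM. The ratios of these means were 1.77 and 1.52. Medulla (321 CPM), olfactory bulb (297 CPM) and SVZ (296 CPM) followed in AL mice. The cerebellum, where Mt1 and Mt2 peaked, ranked only 11 of 15 for Mt3 in AL mice at 219 ± 22.8 CPM and 13 of 15 in PBS mice at 215 ± 63.2 CPM.

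**Figure D1:**
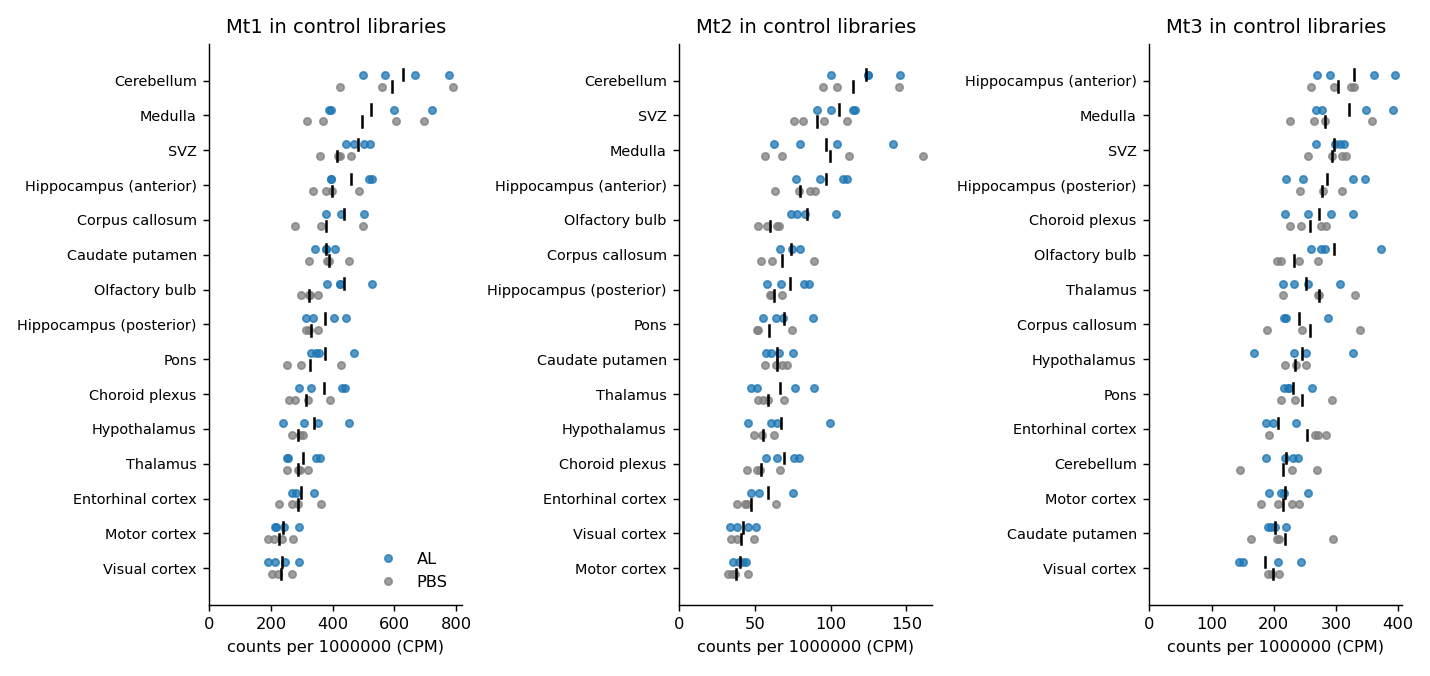
Levels of Mt1, Mt2 and Mt3 in every control library, in CPM on a linear axis, by brain region. Points are libraries (AL females, PBS males), bars are group means, and regions are ordered by the mean of all control libraries. The cerebellum is on top for Mt1 and Mt2 (627 and 124 CPM in AL mice), whereas Mt3 is led by the anterior hippocampus (329 CPM in AL mice).

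Each region was tested against the mean of the other 14 in control mice (edgeR quasi-likelihood test, Benjamini-Hochberg adjustment over all genes). In AL mice Mt1 was higher in the cerebellum by 0.67 on the log2 scale (SE 0.119, adjusted p = 3.31e-06), in the medulla by 0.54 (adjusted p = 0.000128) and in the SVZ by 0.33 (adjusted p = 0.0258). It was lower in the visual cortex (log2 -0.70, adjusted p = 3.91e-05), motor cortex (-0.64, adjusted p = 0.000109), entorhinal cortex (-0.39, adjusted p = 0.0371) and thalamus (-0.32, adjusted p = 0.0417). Mt2 was called in 6 regions: up in the cerebellum (0.72), SVZ (0.55), medulla (0.50) and anterior hippocampus (0.45), and down in the motor (-0.84) and visual cortex (-0.79). Mt3 was called in 4, with the medulla (0.42) and anterior hippocampus (0.41) above the rest and the visual cortex (-0.41) and cerebellum (-0.32) below. In this cohort the cerebellum therefore stood above the mean of the other 14 regions for Mt1 and Mt2 and below it for Mt3. All of these calls passed the same test. The medulla fell below that mean for all 3 genes, without a call for Mt1, when the share of short transcripts was a term of the fit. With that term other calls also changed, in both cohorts (given below). That share itself differs between regions, being 4.56% to 5.13% in the AL medulla and 3.45% to 3.95% in the AL visual cortex. A slope found within regions is thus extended beyond the range that such regions share.

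In PBS males Mt1 was called in 4 regions, the cerebellum (0.76) and medulla (0.63) above and the motor (-0.57) and visual cortex (-0.56) below. Mt2 was called in 6: cerebellum (0.83), medulla (0.76) and SVZ (0.51) above, motor (-0.75), visual (-0.65) and entorhinal cortex (-0.40) below. Mt3 was called in none. Calls between regions are common in these data. Of the 15324 genes tested in AL mice, 64.1% were called in the cerebellum, 62.3% in the medulla, 48.2% in the motor cortex, 46.5% in the thalamus, 46% in the visual cortex, 40.5% in the SVZ, 39.3% in the entorhinal cortex and 34.3% in the anterior hippocampus. In PBS mice the shares were 58.4% in the cerebellum, 56.7% in the medulla, 42.6% in the SVZ, 42.3% in the entorhinal cortex, 40.6% in the motor cortex and 37% in the visual cortex. A call for a metallothionein is therefore not unusual in itself. No difference between neighbours in the order was called: for each gene and cohort, 0 of the 14 neighbouring pairs passed the test. The order was set by these same means, so neighbours are the closest pairs, and the lack of a call does not show equal levels.

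The genes whose control region means were most like those of a metallothionein were named over the 30 group means (15 regions in 2 cohorts), as a description, since region means of 1 cohort share mice. For Mt1 the nearest of 10654 genes was Mt2 (Pearson r = 0.971), followed by the magnesium transporter gene Slc41a1 (0.875), Cyp2d22 (0.845), Hsd3b7 (0.845) and Ss18 (0.831). After Mt1, the nearest genes to Mt2 were Ss18 (0.841), AW047730 (0.840), Abcd4 (0.829) and Hsd3b7 (0.822). No gene followed Mt3 as closely: Snx22 (0.739), Grb14 (0.738), Ahcyl2 (0.685), Sema5a (0.678) and Tagln2 (0.673) came nearest. Without the choroid plexus, r was 0.972 for Mt1 with Mt2, 0.452 for Mt1 with Mt3 and 0.534 for Mt2 with Mt3 over 28 points.

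In freely fed mice, liver held more Mt1 and Mt2 than the mean of the brain regions and essentially no Mt3. Mt1 in the 4 AL livers was 663, 1003, 1499 and 1872 CPM, and Mt2 was 128, 161, 250 and 396 CPM. Against the mean of the 15 brain regions, liver was higher by 2.65 on the log2 scale for Mt1 (SE 0.109, adjusted p = 6.18e-29) and by 2.61 for Mt2 (SE 0.125, adjusted p = 6.08e-26). These values follow TMM scaling of liver and brain libraries together. Their SE came from all AL libraries and not from the 4 livers alone. In unscaled CPM the gap was smaller: liver means were 1259 for Mt1 and 234 for Mt2, beside medians of 375 and 69.3 over the AL brain region means. By this edgeR test 86.2% of 15876 genes differed between liver and brain. The 4 AL livers had 0 Mt3 counts in 34.5 M. A floor of 3 counts over the group is 0.0870 CPM, so Mt3 was at least 2820-fold lower in AL liver than the median AL brain library (245 CPM). Among the DR livers, 1 held a single Mt3 count.

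Dietary restriction in the brain left no metallothionein past the adjusted threshold in any region, but the directions differed between members. The study compared aDR with AL mice to find what the diet does in each region. Mt2 was higher in aDR mice in 15 of 15 regions (log2 0.06 to 0.69, median 0.27) and Mt1 in 14 of 15 (-0.03 to 0.85, median 0.22), the exception being the olfactory bulb. Mt3 was higher in 4 of 15 (-0.25 to 0.75, median -0.05), and in 8 of 15 without AL mouse 69. With 1 mouse left out in turn, the count of higher regions ran from 11 to 15 for Mt1, from 11 to 15 for Mt2 and from 5 to 8 for Mt3. The smallest adjusted p in a brain region was 0.323 for Mt1, 0.195 for Mt2 and 0.383 for Mt3 (edgeR). At an unadjusted p under 0.05 stood 3 regions for Mt1, 3 for Mt2 and 0 for Mt3. The regions of 1 experiment share their mice and are not independent of each other.

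In the caudate putamen, Mt1 CPM was 343, 378, 377 and 406 in the AL mice and 489, 678, 1022, 469 and 554 in the aDR mice. Every aDR library lay above every AL library, which was also the case for 1.97% of 10655 genes in this region. The difference was 0.85 on the log2 scale (SE 0.256, unadjusted p = 0.00726, adjusted p = 0.618). Mt2 there was 56.9 to 74.9 CPM in AL and 68.2 to 125 CPM in aDR mice (log2 0.69, SE 0.202, unadjusted p = 0.00626, adjusted p = 0.618), with 1 aDR mouse inside the AL range. Mt3 was 190 to 220 CPM in AL and 204 to 661 CPM in aDR mice (log2 0.75, SE 0.377, adjusted p = 0.618), and the 661 CPM of aDR mouse 64 stood far above the next value of 288 CPM. With all brain libraries in 1 fit, this region's Mt1 (adjusted p = 0.0218) and Mt3 (adjusted p = 0.0321) were called, as were 4.65% of 15616 genes. The library of mouse 64 was also high in short transcripts: genes with a median coding transcript of at most 600 bases took 6.30% of its counts, against 3.79% to 4.76% in the other 8 libraries. With that measure as a covariate the log2 difference was 0.34 for Mt1 and 0.38 for Mt2 (edgeR adjusted p = 0.842 for both). For Mt3 it turned from 0.75 to -0.10 (adjusted p = 0.888).

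Mt2 in the cerebellum was 146, 125, 124 and 99.9 CPM in the AL mice and 145, 169, 171, 164 and 293 CPM in the aDR mice. The groups overlapped by a fraction of a CPM (log2 0.61, SE 0.178, unadjusted p = 0.00480, adjusted p = 0.195). Mt1 there was 497 to 776 CPM in AL and 633 to 1214 CPM in aDR mice (log2 0.41, unadjusted p = 0.0320, adjusted p = 0.323), while Mt3 was 188 to 240 against 177 to 275 CPM (log2 0.09). In the SVZ, Mt1 was 443 to 521 CPM in AL and 504 to 673 CPM in aDR mice (log2 0.33, SE 0.0968, unadjusted p = 0.00714, adjusted p = 0.981). In the motor cortex, Mt2 was 35.4 to 43.9 CPM in AL and 33.4 to 62.8 CPM in aDR mice (log2 0.30, unadjusted p = 0.0396, adjusted p = 0.448). An unadjusted p under 0.05 was found for 7.27% of genes in the caudate putamen, 13.4% in the cerebellum, 4.55% in the SVZ and 10.5% in the motor cortex.

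Few genes of any kind passed the adjusted threshold in a single region under the diet. The share called was 0.0146% in the caudate putamen, 0.0524% in the cerebellum, 0.00707% in the choroid plexus, 0.0215% in the corpus callosum, 0.00714% in the medulla, 0.251% in the motor cortex, 0.22% in the olfactory bulb, 0.0212% in the SVZ and 0.202% in the visual cortex, and 0 genes were called in the other 6 regions.

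Over all regions together, 1 value per mouse was formed from its brain libraries (limma on these values). On the log2 CPM scale Mt1 was 8.56, 8.44, 8.58 and 8.57 in AL mice 63, 66, 68 and 69, and 8.63, 8.73, 8.81, 8.55 and 9.14 in aDR mice 61, 62, 64, 65 and 67. Mouse 65 lay within the AL range and mouse 67 well above all others. Mt1 was higher in aDR mice by 0.23 (SE 0.105, 95% interval -0.0049 to 0.47, adjusted p = 0.322). Mt2 was 6.13, 6.02, 6.25 and 6.21 in AL and 6.29, 6.36, 6.38, 6.11 and 6.81 in aDR mice, a difference of 0.24 (SE 0.123, 95% interval -0.038 to 0.52, adjusted p = 0.381). Mt3 ranged from 7.83 to 7.997 in AL and from 7.77 to 8.06 in aDR mice and differed by -0.03 (SE 0.0632, 95% interval -0.18 to 0.11, adjusted p = 0.850). At this threshold 0.922% of 15616 genes were called. Without aDR mouse 67, the differences were 0.14 for Mt1 and 0.13 for Mt2. When every library entered with the mouse as a replicate block (limma-voom), Mt1 (0.23, adjusted p = 0.0127) and Mt2 (0.26, adjusted p = 0.00828) were called, in a fit that called 9.45% of all genes.

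No member passed the test of a diet effect that differs between brain regions (region by treatment test, adjusted p = 1 for Mt1, Mt2 and Mt3, with 0.0128% of genes called).

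**Figure D2:**
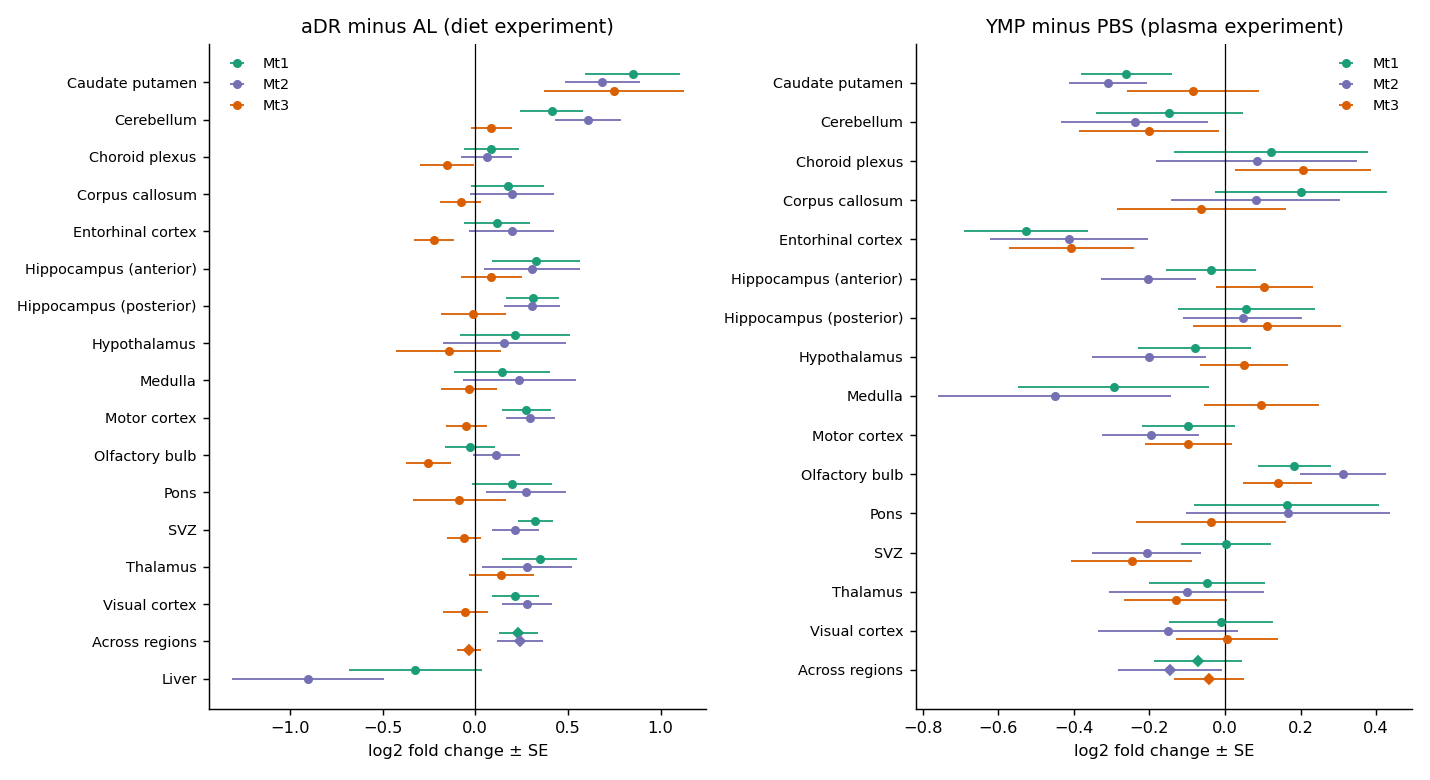
Log2 fold change ± SE of Mt1, Mt2 and Mt3 in each region and in liver, aDR against AL on the left and YMP against PBS on the right, on separate horizontal scales. Diamonds are the values over all regions, 1 value per mouse. Under the diet Mt2 is above 0 in 15 of 15 regions and Mt1 in 14, Mt3 in 4, and in liver both Mt1 and Mt2 are below 0.

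Within the same libraries, Mt1 and Mt2 stood higher relative to Mt3 in aDR than in AL mice, and this separated every mouse of the diet experiment. The ratio of Mt1 to Mt3 counts, averaged on the log scale over a mouse's regions, was 1.51, 1.53, 1.51 and 1.49 in AL mice 63, 66, 68 and 69. In aDR mice 61, 62, 64, 65 and 67 it was 1.82, 1.75, 1.77, 1.66 and 2.12. The log2 ratio was 0.60 ± 0.016 (SD, n = 4) in AL and 0.86 ± 0.134 (SD, n = 5) in aDR mice, a difference of 0.27. The two-sided exact permutation p was 0.0159, the smallest that 5 against 4 mice can give, and 0.0476 after adjustment over the 6 ratio tests made across regions. Ratios of Mt2 to Mt3 were 0.278, 0.284, 0.2996 and 0.289 in AL mice and 0.358, 0.337, 0.329, 0.303 and 0.422 in aDR mice, again without overlap (log2 difference 0.27, exact p = 0.0159, adjusted p = 0.0476). Both ratios share Mt3 as the denominator, and Mt1 and Mt2 moved together, so these results are not independent of each other. The adjusted p of 0.0476 rests on both ratios standing at the smallest p possible. Over the 91 regional ratio tests, the same exact permutation p of 0.0159 became 0.160 (given below). Groups that did not overlap, with the ratio to Mt3 higher in aDR mice, were found for 0.788% of 10654 genes. Leaving out any 1 mouse kept the difference between 0.21 and 0.30 for Mt1 over Mt3 and between 0.20 and 0.32 for Mt2 over Mt3, with no overlap.

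These ratios were examined after the values of the single genes had been seen. A ratio shows that Mt1 and Mt2 changed unequally with Mt3 and not that any 1 of them stayed constant. By region, the ratio of Mt1 to Mt3 was higher in aDR mice in 15 of 15, by 0.15 to 0.38 on the log2 scale. The groups did not overlap in the entorhinal cortex, posterior hippocampus, hypothalamus, motor cortex and SVZ. Mt2 over Mt3 was also higher in 15 of 15 regions (0.11 to 0.50) and did not overlap in the cerebellum, choroid plexus, posterior hippocampus, olfactory bulb and SVZ. The share of the same 10654 genes whose ratio to Mt3 was higher in aDR mice without overlap was 0.0469% in the hypothalamus, 0.0845% in the cerebellum, 0.0939% in the posterior hippocampus, 0.103% in the choroid plexus, 0.206% in the motor cortex, 0.957% in the SVZ, 1.99% in the olfactory bulb and 5.8% in the entorhinal cortex. No single region passed adjustment over the 91 regional ratio tests (smallest adjusted exact permutation p = 0.160). Mt1 over Mt2 did not separate the groups across regions (log2 difference -0.008, exact p = 0.841): it was 5.04 to 5.42 in AL and 5.02 to 5.46 in aDR mice.

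In the plasma experiment none of these ratios, taken per mouse over all regions, separated the groups. Mt1 over Mt3 was 1.45, 1.26, 1.26 and 1.52 in PBS and 1.24, 1.41 and 1.38 in YMP mice (log2 difference -0.03, exact permutation p = 0.743, where the smallest p possible is 0.0571). Mt2 over Mt3 differed by -0.10 (exact p = 0.571) and Mt1 over Mt2 by 0.07 (exact p = 0.171). By region, Mt1 over Mt2 was higher in YMP mice in 13 of 15 (log2 -0.10 to 0.22). The groups did not overlap in the anterior hippocampus (0.18, exact p = 0.0571) and hypothalamus (0.12, exact p = 0.1), each the smallest p possible there, with an adjusted p of 0.260 and 0.379 over the 91 tests. Ratios to Mt2 were higher in YMP mice without overlap for 3.48% of genes in the anterior hippocampus and 5.36% in the hypothalamus. Mt1 over Mt3 was higher in YMP mice in 5 of 15 regions and Mt2 over Mt3 in 4, and the groups overlapped in all 15 for both.

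**Figure D3:**
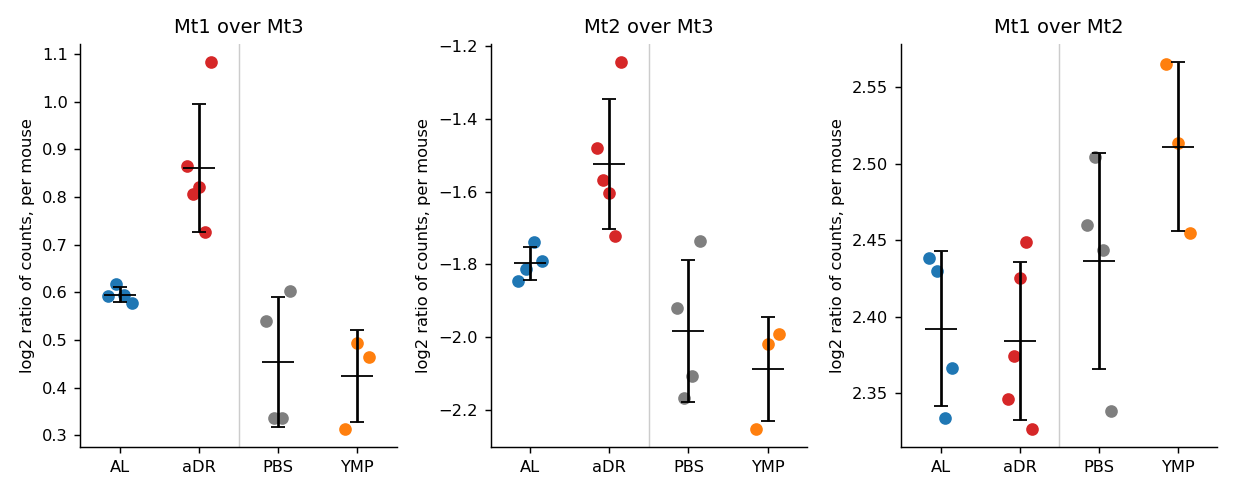
Log2 ratio of counts per mouse, averaged over its brain regions, for Mt1 over Mt3, Mt2 over Mt3 and Mt1 over Mt2. Points are mice, horizontal marks and bars are the mean ± SD, and the vertical axes do not start at 0. The 4 AL mice lie at 0.58 to 0.62 for Mt1 over Mt3 and the 5 aDR mice at 0.73 to 1.08, whereas for Mt1 over Mt2 the diets overlap.

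Liver differed in direction from the brain, without a call. Mt2 in liver was 128, 161, 250 and 396 CPM in AL mice 69, 63, 66 and 68, and 76.3, 73.1, 93.0, 118 and 220 CPM in DR mice 61, 62, 64, 65 and 67. Of the DR mice, 4 lay below all AL mice and mouse 67, the highest also in brain, lay inside their range. The log2 difference was -0.90 (SE 0.409, unadjusted p = 0.0494, adjusted p = 0.547). Mt1 was 663 to 1872 CPM in AL and 547 to 1573 CPM in DR livers (log2 -0.32, SE 0.361, adjusted p = 0.902). In liver 0.22% of 11815 genes were called and 9.09% had an unadjusted p under 0.05. The diet effect in liver minus that in brain was -1.18 for Mt2 (SE 0.353, unadjusted p = 0.00672, adjusted p = 0.319) and -0.58 for Mt1 (adjusted p = 0.721), by limma over mice, with 0.0881% of 11350 genes called.

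In liver the proportion of Mt1 to Mt2 differed between the diets in every mouse. The ratio of Mt1 to Mt2 counts was 4.73, 5.17, 5.99 and 6.25 in AL livers and 7.15, 7.17, 7.25, 9.98 and 10.7 in DR livers, with no overlap. Among 7805 genes with a mean of at least 10 CPM in liver, 2.47% had a ratio to Mt2 that was higher in DR livers without overlap. The log2 ratios were 2.46 and 3.06 (difference 0.60, two-sided exact permutation p = 0.0159, the smallest possible here, adjusted p = 0.160 over the 91 ratio tests). This comparison was also chosen after the values were seen, and it did not pass the adjustment. Hepatocyte markers summed to 65911 to 79492 CPM in AL and 74933 to 95024 CPM in DR livers (0 of 4 genes called), 3 Kupffer cell markers to 155 to 508 and 69.4 to 310 CPM, and 5 blood markers to 104 to 222 and 55.3 to 95.1 CPM (0 called in either list). The part of these cells in the liver values was not tested.

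**Figure D4:**
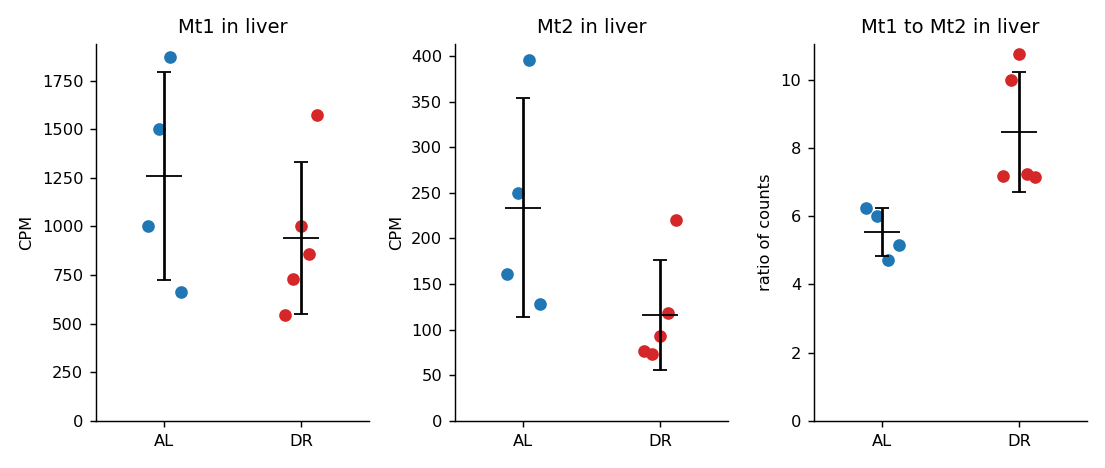
Mt1 and Mt2 in the 4 AL and 5 DR livers, in CPM, and the ratio of Mt1 to Mt2 counts. Points are mice, and horizontal marks and bars are the mean ± SD. Mt1 and Mt2 overlap between the diets, while the ratios run from 4.73 to 6.25 in AL and from 7.15 to 10.7 in DR mice.

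Young plasma moved no metallothionein past the threshold. YMP mice were compared with PBS mice to ask what young plasma does in aged brain. Mt1 was higher in YMP mice in 6 of 15 regions (log2 -0.53 to 0.20, median -0.04), Mt2 in 5 (-0.45 to 0.31, median -0.20) and Mt3 in 7 (-0.41 to 0.21, median -0.04). Without YMP mouse 81 these counts were 3 for Mt1 and 2 for Mt2, and without PBS mouse 72 the Mt2 count was 2. In the entorhinal cortex, Mt1 was 363, 287, 268 and 227 CPM in PBS and 179, 189 and 236 CPM in YMP mice, and 1 YMP mouse lay inside the PBS range (log2 -0.53, SE 0.163, unadjusted p = 0.0112, adjusted p = 0.910). Mt3 there was 193 to 285 CPM in PBS and 166 to 238 CPM in YMP mice (log2 -0.41, unadjusted p = 0.0383, adjusted p = 0.910). Mt2 was lower in the caudate putamen, at 47.9 to 56.6 against 56.3 to 71.0 CPM (log2 -0.31, unadjusted p = 0.0148, adjusted p = 0.474). In the olfactory bulb it was 44.6, 72.1 and 80.4 CPM in YMP against 51.9 to 65.6 CPM in PBS mice (log2 0.31, unadjusted p = 0.0153, adjusted p = 0.479). The 44.6 CPM rested on 27 Mt2 counts in the shallowest library of the series (0.606 M). The group means there were 65.7 and 60.0 CPM, closer together than the fitted difference. Unadjusted p-values under 0.05 were found for 4.69% of genes in the entorhinal cortex, 10.2% in the caudate putamen and 8.84% in the olfactory bulb. The adjusted threshold was passed by 0.00738% of genes in the cerebellum, 0.184% in the corpus callosum and 0 in the other 13 regions.

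Across regions the plasma differences were -0.07 for Mt1 (SE 0.117, 95% interval -0.35 to 0.20, adjusted p = 0.884), -0.15 for Mt2 (SE 0.139, 95% interval -0.47 to 0.18, adjusted p = 0.813) and -0.04 for Mt3 (SE 0.0936, 95% interval -0.26 to 0.18, adjusted p = 0.915). On the log2 CPM scale Mt1 was 8.63, 8.22, 8.39 and 8.38 in PBS and 8.14, 8.35 and 8.51 in YMP mice, which overlapped. In this limma test 0% of 15768 genes were called, and 1275 had an unadjusted p under 0.05. No member passed the test of a plasma effect that differs between regions (adjusted p = 1 for each, with 0.824% of genes called). The diet effect minus the plasma effect was 0.30 for Mt1 (SE 0.166, adjusted p = 0.493), 0.39 for Mt2 (SE 0.197, adjusted p = 0.451) and 0.005 for Mt3 (adjusted p = 0.992), where 0.168% of 16063 genes were called.

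Within groups, single mice carried much of the spread, and Mt1, Mt2 and Mt3 varied together from library to library. Mt1 of aDR mouse 67 was above its group mean in 13 of 15 regions and Mt2 in 14 of 15. YMP mouse 81 was above its group mean in 14 of 15 regions for both genes. Deviations of the 229 brain libraries from their group means correlated at r = 0.934 for Mt1 with Mt2, 0.828 for Mt1 with Mt3 and 0.725 for Mt2 with Mt3. By this measure the nearest genes to Mt1 after its 2 relatives were Cst3 (0.802), the cystatin C gene, Tyrobp (0.769), a microglial adaptor gene, and Rplp2 (0.738), a ribosomal protein gene. Mt2 was followed by Tyrobp (0.734), Cst3 (0.725) and Gas5 (0.705) beside its relatives. The genes nearest to Mt3 were Ndufa3 (0.898), Atp5md (0.885), Cox8a (0.878), Ndufb1-ps (0.877) and Timm8b (0.872), most of which encode small mitochondrial proteins. Libraries of 1 mouse and 1 region share handling, so these values describe the libraries and carry no test.

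**Figure D5:**
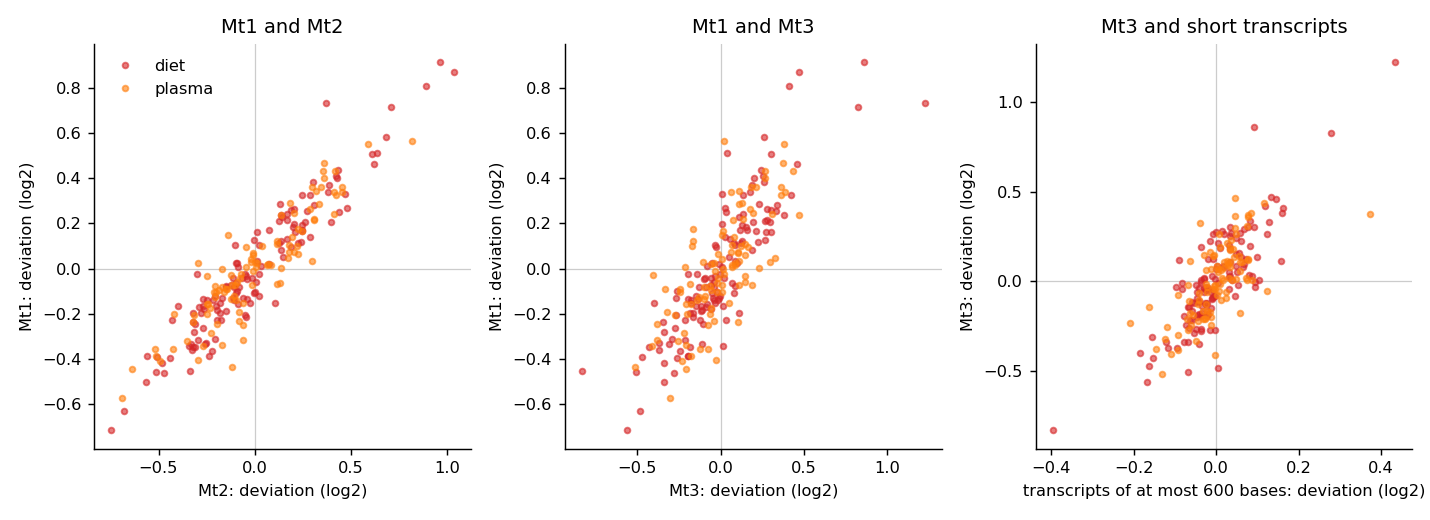
Deviation of each of the 229 brain libraries from the mean of its region and treatment group, in log2 units: Mt2 against Mt1, Mt3 against Mt1, and the counts of transcripts of at most 600 bases against Mt3. Points are libraries, coloured by experiment. Mt1 follows Mt2 most tightly (r = 0.934), and Mt3 follows the short transcripts at r = 0.785.

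Few genes of zinc transport and metallothionein regulation were called across regions under the diet, in the per-mouse test that called 0.922% of all genes. None of 8 zinc exporter and vesicle loading genes and none of 13 zinc importer genes were called in aDR against AL brain, with medians of 0.0004 and -0.008 on the log2 scale beside -0.006 over all genes. Of 9 regulators, 1 rose: Cebpb, a transcription factor of the inflammatory response (log2 0.27, SE 0.0478, adjusted p = 0.0393). Mtf1, the metal sensor, differed by 0.05 (adjusted p = 0.480). Glucocorticoid-induced genes, of which 6 of 14 rose and 0 fell (median 0.52; 0.922% of all genes called), held Plin4, a lipid droplet coat gene (2.03, adjusted p = 0.0131), Tsc22d3, which encodes the glucocorticoid-induced leucine zipper (0.50, adjusted p = 0.0208), Hif3a (1.09, adjusted p = 0.0233) and Zbtb16 (0.57, adjusted p = 0.0307). None of 8 Nrf2 target genes and none of 7 reactive astrocyte genes were called.

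Marker lists of other cell types were read beside these values. None of 7 astrocyte (median 0.007), 3 microglial (-0.05) or 5 blood (0.93) markers was called across regions under the diet, and 2 of 5 endothelial markers fell (Flt1, -0.26, and Cldn5, -0.48), with a list median of -0.26, in the same test (0.922% of all genes called). Their part in the metallothionein values was not tested. In liver, Il6ra, a receptor gene of the cytokine route that induces metallothioneins, rose by 1.06 (edgeR, adjusted p = 0.0245). Plin4 rose by 2.80 (adjusted p = 0.00495) and Zbtb16 by 1.66 (adjusted p = 0.0153), in the same test, which called 0.22% of 11815 genes. These genes were named because they were called, and the other regulators and glucocorticoid-induced genes are not given for liver. Their part in the liver values of Mt1 and Mt2 was not tested. The liver lists of zinc exporters (0 of 7 tested called) and importers (0 of 11) held no call. Under young plasma no gene of any list was called across regions. There the choroid plexus epithelium list had a median of -1.25 (0 of 8 called), in parallel with the plexus marker counts given above for the SVZ and corpus callosum.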

How the data were processed

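Values were raw counts per gene from unstranded Smart-Seq2 libraries, deposited by the authors as 1 table of 238 libraries and 21076 gene rows. Per the submitters' processing notes, Trim Galore 0.3.7, STAR 2.5.3a, DESeq2 and the build GRCm38 were used; the counting tool is not given in the sources used here. Members and lists were chosen with earlier results of these data known.

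Printed levels are counts per 1000000 counts of the library total (CPM), with no pseudocount. Within a tissue, edgeR 4.0.16 fitted the counts (TMM, filterByExpr with a minimum count of 10, quasi-likelihood test). Across regions, log2 CPM (prior count 2) was fitted by region and mouse, and the mouse terms were tested with limma 3.58.1. P-values were adjusted over all genes, with a threshold of 0.05. Ratios of members were tested by two-sided exact permutation over mice. Both tests were checked on simulated counts. Same-numbered libraries are regions of the same mouse, as the labels state, and their deviations over all genes correlated at 0.047 in the diet and 0.110 in the plasma experiment, against -0.006 and -0.018 between mice. Replicates are separate mice. Smart-Seq2 libraries hold no molecular identifiers, so the floor of 3 counts covers counting error only. The 3 members were named everywhere; from a list, the called genes of smallest p (at most 4) and, per member, the 5 genes most like it were named. Alternatives were other scaling (DESeq2 size factors), DESeq2 1.42.0, no filter, single mice or regions left out, replicate blocks and, added after seeing the data, a short-transcript term and the ratio tests.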

Additional observations from a re-analysis of the deposited data

Results flagged for a closer look

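In groups of 4 to 10 libraries, the highest or lowest value was compared with its nearest neighbour, and 7 of 115 groups had a value that stood apart, against 5.75 expected by chance. All 7 were high values of aDR mice. In aDR mouse 67, Mt1 was 1214 CPM in the cerebellum, where the other 4 aDR mice held 633 to 776, and Mt2 was 293 CPM against 145 to 171. In the medulla of the same mouse Mt1 was 992 CPM against 411 to 513, and Mt2 was 212 CPM against 76.3 to 93.5. Mouse 67 also had the highest liver Mt1 and Mt2 of the DR mice. In the pons of aDR mouse 64 Mt1 was 647 CPM against 287 to 388, and Mt2 was 124 CPM against 60.3 to 74.2. Mt3 in the caudate putamen of mouse 64 was 661 CPM against 204 to 288. Transcripts of at most 600 bases took 5.25% of the counts of the pons library of mouse 64, against 3.29% to 4.62% in the other aDR libraries of that region, and 6.30% against 4.10% to 4.76% in its caudate putamen library. In mouse 67 this share was 4.18% in the cerebellum, within the range of 3.87% to 4.26% of the other aDR mice, and 5.23% in the medulla, against 4.56% to 4.74%.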

How the results depend on the processing

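The diet differences of Mt1 and Mt2 across regions kept their direction under every alternative run. They were called with all libraries in limma-voom and the mouse as a replicate block (Mt1 0.23, Mt2 0.26) and with no replicate block (Mt1 0.24, Mt2 0.26), and in no other alternative. The blocked fit treats regions of a mouse as repeated measures and called 1475 of 15616 genes. The fit without the block takes them as independent and called 2760, against 144 with 1 value per mouse. Without 1 mouse in turn, the diet differences ran from 0.14 to 0.29 for Mt1, 0.13 to 0.31 for Mt2 and -0.0692 to 0.000494 for Mt3 (above 0 without aDR mouse 61). The plasma differences ran from -0.16 to 0.0269 for Mt1 and -0.11 to 0.00572 for Mt3, above 0 without PBS mouse 72 or YMP mouse 73 for both genes, and from -0.26 to -0.02 for Mt2. The diet minus plasma difference of Mt3 ran from -0.0368 to 0.0751.

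The number of brain regions called for a member under the diet was 0, but 1 for Mt1 and 1 for Mt3 (caudate putamen) with all brain libraries in 1 fit, and 1 for Mt1 (motor cortex) with the short-transcript level as a term (116 of 13128 genes called). Under plasma it was 0 to 1 for Mt3 without 1 mouse, the call being the cerebellum without PBS mouse 84 (log2 -0.42, edgeR adjusted p = 0.0474), in a fit that called 112 of 13577 genes. Liver differences without 1 mouse ran from -0.66 to -0.07 for Mt1 and -1.35 to -0.52 for Mt2. The count of regions that differed from the other 14 in PBS mice was 0 for Mt3, but 1 with DESeq2 size factors, 3 with mouse as a replicate block, 5 with all mice and 8 with the short-transcript term. It was 4 for Mt1, and 9 with all mice. In AL mice it rose with the short-transcript term from 6 to 10 for Mt2 and from 4 to 10 for Mt3. Although the short-transcript share itself differs between regions, with that term the AL medulla fell below the mean of the other 14. Its log2 differences were -0.25 for Mt1, -0.37 for Mt2 and -0.27 for Mt3 (edgeR adjusted p = 0.0621, 0.0196 and 0.0446). In the PBS medulla, Mt1 (0.02) and Mt2 (0.39) were then not called and Mt3 was called below (-0.42). Mt1 in the AL entorhinal cortex became 0.10, without a call. Mt3 in the AL visual cortex became -0.03, also without a call, and the AL pons was then lowest for Mt3 (-0.53). In PBS mice, Mt1 in the motor (-0.27) and visual cortex (-0.25) and Mt2 in the entorhinal cortex (-0.25) were no longer called. In AL mice, Mt1 stayed called below in the motor (-0.32) and visual cortex (-0.26). The AL cerebellum kept its directions (0.58 for Mt1, 0.63 for Mt2, -0.39 for Mt3). Neighbouring regions differed in 0 pairs, but with all mice of the diet experiment in 1 pair for Mt1, 3 for Mt2 and 3 for Mt3. The treated minus control difference of the log2 ratio of Mt1 over Mt2 in the diet experiment ran between -0.0273 and 0.0066 and that of Mt1 over Mt3 in the plasma experiment between -0.0691 and 0.0266 without 1 mouse. The replicate block changed no other call. The number of mice, 2 to 5 per arm in a region, limits the precision of every difference.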

Other observations

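The library-to-library movement of the metallothioneins ran along with transcript length. The summed counts of 356 genes with a median coding transcript of at most 600 bases, members and mitochondrially encoded genes left out, deviated from library to library at r = 0.702 with Mt1, 0.605 with Mt2 and 0.785 with Mt3 (229 brain libraries, across both experiments). Total depth correlated at 0.095, 0.058 and -0.012, and the share of counts from mitochondrially encoded genes at 0.468, 0.342 and 0.544. The part of this share in the member values was not tested. Of the 100 genes that moved most like Mt1, the 95 with a length had a median of 612 bases, against 2302 over the 10525 genes with a length. For Mt2 that median was 679 bases and for Mt3 601 bases. After removing the short-transcript level, Mt1 and Mt2 still correlated at r = 0.899, Mt1 and Mt3 at 0.628 and Mt2 and Mt3 at 0.507. Pooled over regions, the share of these transcripts was alike in the arms, with medians of 4.00% in AL, 4.05% in aDR, 3.98% in PBS and 3.8998% in YMP brain libraries. Single regions could differ more: in the olfactory bulb it was 3.72% to 4.06% in AL and 3.49% to 3.75% in aDR mice. These relations were noticed in the data and are given as descriptions.

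With this level as a term of the fit, the diet differences across regions were 0.22 for Mt1, 0.23 for Mt2 and -0.05 for Mt3 by limma (adjusted p = 0.314, 0.378 and 0.689). Within the motor cortex, Mt1 was then called in aDR mice (edgeR, log2 0.27, SE 0.0574, adjusted p = 0.0305), in a fit that called 116 of 13128 genes. In the olfactory bulb, the 1 region where Mt1 was lower in aDR mice without the term, it was higher with it (edgeR, log2 0.36, adjusted p = 0.621).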
